A study of Mus musculus with 12 samples.

Results

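Facioscapulohumeral muscular dystrophy (FSHD) is a muscle disease that follows from the expression of the transcription factor DUX4-FL in skeletal muscle fibers, where the gene is normally silent. Beside the genes of the contractile apparatus, 7 genes that were lower in mice expressing DUX4-FL in muscle are described here: Pla2g5, Fgfbp1, Ppp1r1a, Cth, 2310010M20Rik (now named Smco1), Narf and Gm11752. They were picked by name out of the 37748 genes counted, as fiber-expressed genes with the largest falls in the moderate and severe models relative to control muscle. All 7 were among the 16679 genes that passed the filter on low counts and were tested. Their falls in these models are therefore what chose them, and they are given below as levels and fold changes without a test.

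RNA was sequenced from the gastrocnemius muscle of 12 mice, 3 in each of 4 groups, at 13 weeks of age by the methods. The control mice were ACTA1-MCM/+ without tamoxifen (TMX), so they carried the inducible Cre recombinase MerCreMer, driven in skeletal muscle by the ACTA1 promoter, but no DUX4 transgene. The FLExD mice carried the FLExDUX4 transgene alone, inserted at Rosa26 and inverted until Cre turns it, and also received no TMX. Their description field reads "mild pathology". The mild model of the paper carries both transgenes and receives no TMX, so by their strain label the FLExD mice are not that model. Both transgenes were present in the moderate and the severe model (FLExDUX4/+;MCM/+). The moderate model received 1 injection of TMX at 5 mg/kg and the severe model 2 injections at 10 mg/kg on consecutive days, with muscles taken 9 days after TMX by the methods. Recombination is mosaic in these mice, so fibers with and without DUX4-FL lie in the same muscle. No TMX-treated mouse without the DUX4 transgene was among the 12, so TMX and DUX4-FL cannot be told apart in the comparisons with control.

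The 7 genes have different roles in the muscle. Pla2g5 encodes a secreted phospholipase A2, an enzyme that frees fatty acids such as arachidonic acid from phospholipids. Fgfbp1 is a secreted carrier that releases fibroblast growth factors (FGFs) from the extracellular matrix. Ppp1r1a, or inhibitor-1, blocks protein phosphatase 1 once protein kinase A (PKA) has phosphorylated it. Cth is cystathionine gamma-lyase, which makes cysteine from cystathionine and can also make hydrogen sulfide. Narf binds the carboxy-terminal end of prelamin A, the precursor of a nuclear lamina protein. Smco1 was named for a single membrane-spanning segment and coiled coils, and Gm11752 is annotated as a long intergenic noncoding RNA.

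On GRCm38 with GENCODE M21, Pla2g5 lies at chr4:138799244-138863482 on the minus strand, Fgfbp1 at chr5:43978858-43981779 on the minus strand, Ppp1r1a at chr15:103530279-103538003 on the minus strand and Cth at chr3:157894248-157925077 on the minus strand. Smco1 lies at chr16:32271468-32274781, Narf at chr11:121237253-121255856 and Gm11752 at chr11:119220160-119222473, all on the plus strand. The 7 genes are thus on 6 chromosomes. Narf and Gm11752, which share chromosome 11, are separate genes with other genes between them.

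The sequence in front of the start sites of these genes was read for shared letters. That all 7 fell is how they were chosen, and a shared cause of their falls was not tested. RefSeq promoters were found for 4 of the 7 genes, Pla2g5 with 2 start sites, Fgfbp1, Smco1 and Narf. The 250 bases before each start on GRCm38.p6 are given 5′ to 3′ on the strand of the gene, with E-boxes (CANNTG, the letters bound by myogenic factors such as MyoD) and CCAAT boxes (CCAAT or its reverse complement ATTGG) in capitals.
Pla2g5 upstream start, chr4:138863470-138863719, minus strand: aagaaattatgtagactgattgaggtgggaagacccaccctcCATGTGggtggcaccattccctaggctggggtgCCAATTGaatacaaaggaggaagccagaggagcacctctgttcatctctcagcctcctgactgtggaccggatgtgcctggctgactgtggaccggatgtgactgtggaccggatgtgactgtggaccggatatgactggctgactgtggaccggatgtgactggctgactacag
Pla2g5 downstream start, chr4:138819258-138819507, minus strand: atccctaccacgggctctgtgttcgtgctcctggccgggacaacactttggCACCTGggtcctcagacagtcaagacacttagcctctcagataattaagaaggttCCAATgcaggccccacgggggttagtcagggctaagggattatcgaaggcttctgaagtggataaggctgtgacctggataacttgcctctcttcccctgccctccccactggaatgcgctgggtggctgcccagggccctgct
Fgfbp1, chr5:43981800-43982049, minus strand: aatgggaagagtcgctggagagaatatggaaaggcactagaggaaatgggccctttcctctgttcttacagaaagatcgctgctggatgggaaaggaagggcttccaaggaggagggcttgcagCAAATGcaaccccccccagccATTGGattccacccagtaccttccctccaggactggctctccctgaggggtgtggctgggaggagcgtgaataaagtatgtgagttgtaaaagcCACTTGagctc
2310010M20Rik (Smco1), chr16:32271230-32271479, plus strand: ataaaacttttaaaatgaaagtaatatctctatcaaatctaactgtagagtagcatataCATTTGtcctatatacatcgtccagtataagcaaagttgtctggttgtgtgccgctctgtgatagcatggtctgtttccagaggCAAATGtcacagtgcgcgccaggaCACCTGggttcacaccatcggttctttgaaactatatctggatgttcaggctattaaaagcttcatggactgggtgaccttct
Narf, chr11:121236986-121237235, plus strand: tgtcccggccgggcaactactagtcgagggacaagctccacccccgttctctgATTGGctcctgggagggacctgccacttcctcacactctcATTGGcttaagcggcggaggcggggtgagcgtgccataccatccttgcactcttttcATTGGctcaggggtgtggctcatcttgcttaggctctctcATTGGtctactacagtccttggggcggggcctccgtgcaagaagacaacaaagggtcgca

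Both motifs were common among all promoters. Of 32851 RefSeq upstream windows of the same length, 66.2% held an E-box and 33.8% a CCAAT box on either strand. The Smco1 window held 3 E-boxes and no CCAAT box, and the Narf window held 4 CCAAT boxes and no E-box. Fgfbp1 had 2 E-boxes and 1 CCAAT box, the upstream start of Pla2g5 had 2 and 1, of which the second E-box overlaps the CCAAT box, and the downstream start had 1 of each. None of the 5 windows held TATAAA (12.4% of all windows), a MEF2 element (2.92%), a CArG box (1.47%) or the DUX4 element (0.125%), each searched on both strands. The GC content was lowest for Smco1 at 40.8% and highest for Narf at 58.8%, against a median of 52.4% over all windows. No motif was thus found in all 5 windows.

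Total counts ranged from 23796902 to 29136403 per mouse, and 3 counts, the floor used here, equalled 0.0676 to 0.155 CPM (each count divided by its library size, which was adjusted by the trimmed mean of M-values, TMM). Esr1, whose ligand-binding part is in MerCreMer, was at 652 ± 206 CPM (SD, n = 3) in control muscle and at 31.7 ± 5.49 CPM in FLExD muscle, which carries no MerCreMer by its labels. It was at 111 ± 13.9 CPM in moderate and 36.1 ± 1.17 CPM in severe muscle. With TMM factors the severe mice, labelled as carrying MerCreMer, were thus near the FLExD level. Before this scaling they had 1475 to 1586 Esr1 counts, against 554 to 786 in the FLExD mice, whose libraries were larger. Wfdc3, a gene that DUX4-FL is known to switch on in mice, was at 0.228 ± 0.137 CPM in control, 0.211 ± 0.169 in FLExD, 76.3 ± 13.4 in moderate and 87.5 ± 26.7 in severe muscle. The fiber markers Ckm and Acta1 were at 22076 ± 2585 and 20537 ± 2096 CPM in control muscle. In severe muscle they were at 1493 ± 521 and 1842 ± 242 CPM. MerCreMer is driven by the ACTA1 promoter, and the part of this fall in the Esr1 levels was not tested. Of a list of 20 adult fiber genes, 18 were called lower (an adjusted p below 0.05 in edgeR and a log2 fold change of 0.5 or more in size) in moderate and 20 in severe mice, and their summed level ran from 200460 to 265330 CPM in control, 83643 to 100960 in moderate and 13233 to 23342 in severe mice. All 8 macrophage genes were called higher in both models, with a sum of 98.7 to 126 CPM in control, 499 to 640 in moderate and 1132.5 to 1237 in severe mice. These 2 lists kept their direction on library sizes alone. The 6 endothelial and 3 erythroid genes were all called lower in the severe model, and of 6 satellite cell genes 4 were called higher and 1 lower. On library sizes alone, 1 endothelial gene was called lower and 2 higher, and all 6 satellite cell genes were called higher. Of all genes tested, 17% were called lower and 24.4% higher in the moderate model, and 27.9% and 32.9% in the severe model. In this bulk tissue, fewer fibers and less RNA per fiber cannot be told apart. The part of these cell mixtures in the falls of the 7 genes was not tested.

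In control muscle the 7 genes spanned a wide range of levels per transcript length. Narf was the most abundant at 67.7 ± 1.52 TPM (transcripts scaled for their length, SD, n = 3), followed by Ppp1r1a at 47.7 ± 4.81 and Smco1 at 34.6 ± 1.56. Fgfbp1 at 10.2 ± 1.37, Pla2g5 at 8.36 ± 4.18 and Gm11752 at 6.52 ± 0.72 TPM came next. Pla2g5 varied so much between the control mice that its order relative to the other genes of this middle range was not distinguishable. Cth had the lowest level of the 7, at 2.59 ± 0.66 TPM.

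**Figure D1:**
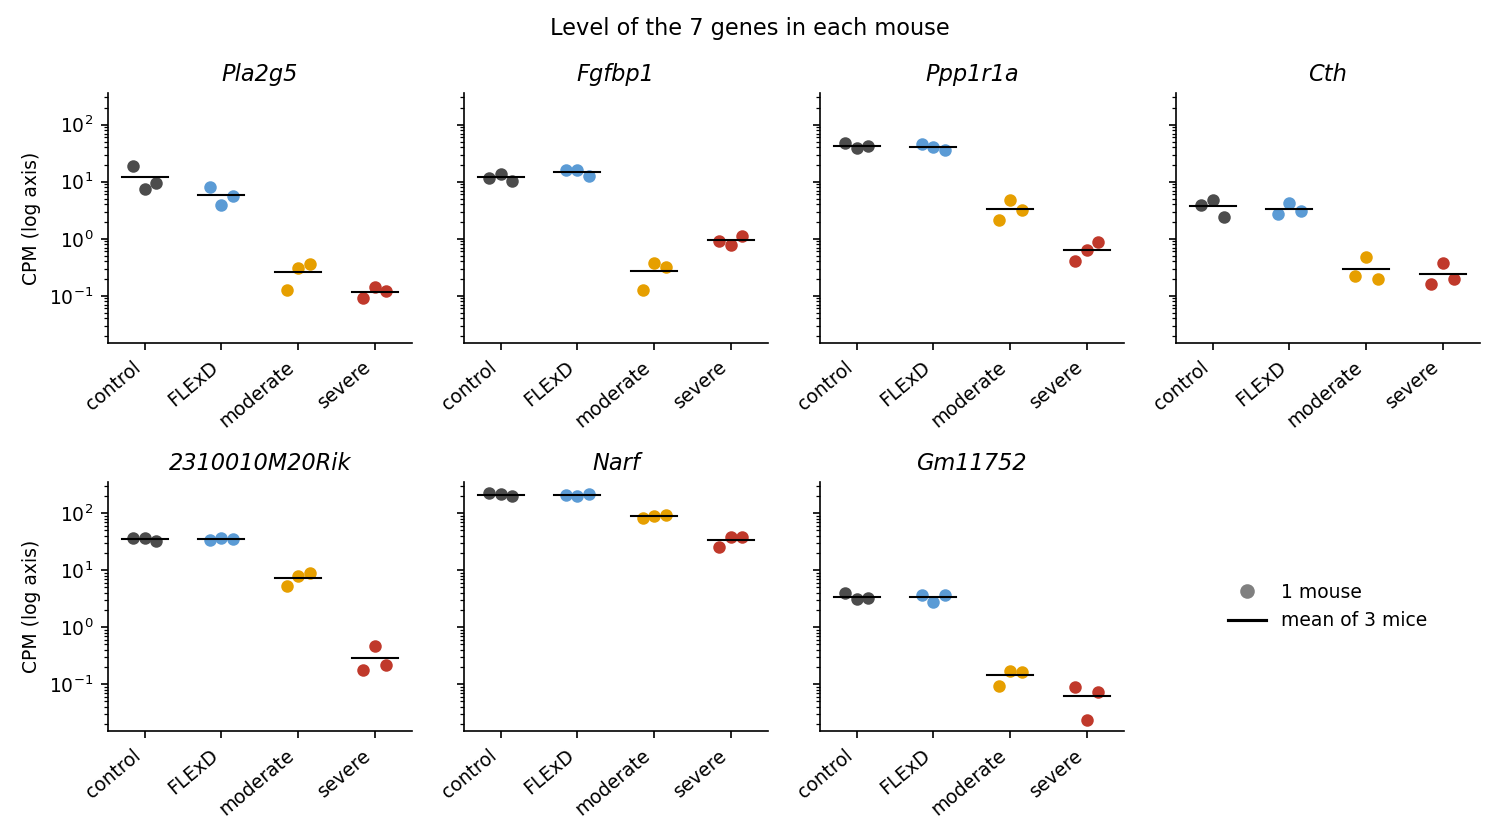
Level of each gene in each of the 12 mice in CPM on a log axis, with 1 point per mouse and a line at the mean of the 3 mice of a group. Control and FLExD mice lie together, all moderate and severe mice lie below them, and Fgfbp1 alone is higher in all severe than in all moderate mice.

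The secreted enzyme Pla2g5 was close to lost in both models. Its level was 18.9, 7.47 and 9.58 CPM in the control mice, 0.126, 0.31 and 0.359 CPM in the moderate mice and 0.0902, 0.142 and 0.121 CPM in the severe mice. The lowest control mouse was above every mouse of both models, and the moderate and severe mice overlapped. The means of the moderate and severe groups were 2.22% and 0.98% of the control mean. These levels rested on 4 to 11 counts per moderate mouse and 4 to 6 per severe mouse. Log2 fold changes of -5.48 (SE 0.47) in moderate and -6.62 (SE 0.50) in severe mice were the fourth and the ninth lowest of 16679 genes.

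Fgfbp1, the carrier of FGFs, went down further in the moderate than in the severe model. It was at 11.7, 13.8 and 10.3 CPM in control, 0.126, 0.379 and 0.326 CPM in moderate and 0.902, 0.778 and 1.14 CPM in severe mice. All 3 severe mice were above all 3 moderate mice, and all 6 were far below the controls. The moderate levels rested on 4, 11 and 10 counts and the severe levels on 40, 33 and 47 counts. The moderate mean was 2.32% and the severe mean 7.86% of control. These are log2 fold changes of -5.42 (SE 0.26) and -3.67 (SE 0.20), ranks 5 and 177 from the lowest of all genes tested. The severe model thus stood 1.76 (SE 0.32) above the moderate model on the log2 scale, and it remained above it in each alternative processing, between 1.04 and 2.45.

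Inhibitor-1, Ppp1r1a, fell in steps. The control mice had 48, 38.9 and 41.9 CPM, the moderate mice 2.15, 4.83 and 3.13 CPM and the severe mice 0.406, 0.637 and 0.894 CPM. No 2 of these 3 groups overlapped. The moderate mean was 7.85% and the severe mean 1.5% of control, with log2 fold changes of -3.68 (SE 0.24) and -6.05 (SE 0.29). Between the models the level dropped by a further 2.38 (SE 0.31) on the log2 scale.

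Cth, the cysteine-forming enzyme, was already low in the control mice, at 3.94, 4.87 and 2.42 CPM. It was at 0.221, 0.483 and 0.196 CPM in the moderate and 0.158, 0.377 and 0.193 CPM in the severe mice. The models lay below the controls and overlapped each other. The group means were 8.02% and 6.49% of control. On 6 to 16 counts per mouse, the log2 fold changes were -3.64 (SE 0.39) in moderate and -3.92 (SE 0.38) in severe mice. The difference between the models was -0.29 (SE 0.50) on the log2 scale, and it changed sign to 0.21 without moderate replicate 1308, 0.40 on library sizes alone and 0.15 with limma on log2(TPM + 1).

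Unlike Cth, Smco1 was far lower in the severe than in the moderate model. It was at 36.2, 36.9 and 32.2 CPM in control and still at 5.21, 7.93 and 8.94 CPM in moderate mice, but at 0.18, 0.472 and 0.217 CPM in severe mice. None of these groups overlapped. The moderate mean was 21% and the severe mean 0.826% of control. The log2 fold change went from -2.25 (SE 0.18), rank 137 of all genes, to -6.90 (SE 0.26), rank 6. The difference between the models of -4.65 (SE 0.27) was the eighth lowest of all genes tested.

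Narf did not belong with the largest falls by its rank. It was at 223, 213 and 201 CPM in control, 82.6, 90.8 and 91.9 CPM in moderate and 26, 38.6 and 38.6 CPM in severe mice, with no overlap between these groups. The moderate mean was 41.7% and the severe mean 16.2% of control. Log2 fold changes of -1.26 (SE 0.13) in moderate and -2.62 (SE 0.14) in severe mice had ranks 738 and 509 from the lowest.

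The noncoding RNA Gm11752 had 3.94, 3.13 and 3.27 CPM in control mice and only 3, 5 and 5 counts in the moderate and 4, 1 and 3 counts in the severe mice. From the summed counts, its level was 24.1-fold lower than control in the moderate model (95% exact interval 13.8 to 46.1) and 55-fold lower in the severe model (27.4 to 129), intervals that cover counting error only. Every mouse of both models was below every control mouse. The severe mice lay below the moderate mice only by a margin of 0.0902 to 0.0946 CPM, and on library sizes alone the models overlapped, with severe replicate 1047 at 0.168 CPM and moderate replicate 1236 at 0.107 CPM.

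Set side by side, the genes differed in how much of their loss was already present in the moderate model. The log2 fall in the moderate model was 148% of that in the severe model for Fgfbp1, 92.7% for Cth, 82.8% for Pla2g5 and 80% for Gm11752. It was 60.7% for Ppp1r1a, 48.1% for Narf and 32.7% for Smco1. The order between the models was not fixed for Cth and Pla2g5. Pla2g5 differed by -1.14 (SE 0.79) between them, and by 0.02 with limma on log2(TPM + 1). Gm11752, on 1 to 5 counts per mouse, differed by -1.14 (SE 0.50), and by -0.10 with limma. The shares of these 3 genes are therefore uncertain. On the log2 scale, the fall of Fgfbp1 was thus larger at the lower TMX dose. That of Smco1 was larger between the doses than between control and the lower dose. These are shares of a log2 fold change and not of the level. Smco1 was down to 21% of its control mean in the moderate model, so most of its level was lost there too.

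In both models all 7 genes lay below control without overlap, as did 28.5% of all genes tested in moderate and 34.9% in severe mice. Since the genes were chosen on these contrasts, this count describes the choice. In the severe relative to the moderate model, 4 of the 7 were lower without overlap (Ppp1r1a, Smco1, Narf and, with TMM factors only, Gm11752) and 1 was higher without overlap (Fgfbp1), against 30.8% and 30.5% of all genes.

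The falls were set against those of the 20 adult fiber genes, which include Ckm, Acta1, Myh4 and other genes of contraction and energy use. The 7 genes were chosen for their falls in these models, so falls larger than those of the fiber genes describe that choice. Over the 7 genes the median log2 fold change was -3.68 in moderate and -5.69 in severe mice, that of the fiber genes was -1.46 and -3.63, and that of all genes tested was 0.04 and 0.08. In the moderate model Pla2g5, Fgfbp1, Ppp1r1a, Cth and Gm11752 each fell further than all 20 fiber genes, Smco1 further than 19 of them and Narf further than 5. In the severe model Pla2g5, Ppp1r1a, Smco1 and Gm11752 fell further than all 20, Cth further than 15, Fgfbp1 further than 11 and Narf further than 1. From the moderate to the severe model the order of the medians turned. Pla2g5, Fgfbp1, Cth and Gm11752 had 3 to 14 counts per moderate mouse, which limits how large a further drop can be measured. The fiber genes dropped by a median of 2.14 on the log2 scale and the 7 genes by 1.14, and only Smco1 dropped by more than all 20 fiber genes. Relative to control, Narf moved within the range of the fiber genes in both models. Between the models its log2 fold change was -1.36 (SE 0.13), a smaller drop than in any fiber gene, where the smallest was -1.51. This did not rest on low counts, since Narf had 2618 to 2817 counts per moderate mouse.

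**Figure D2:**
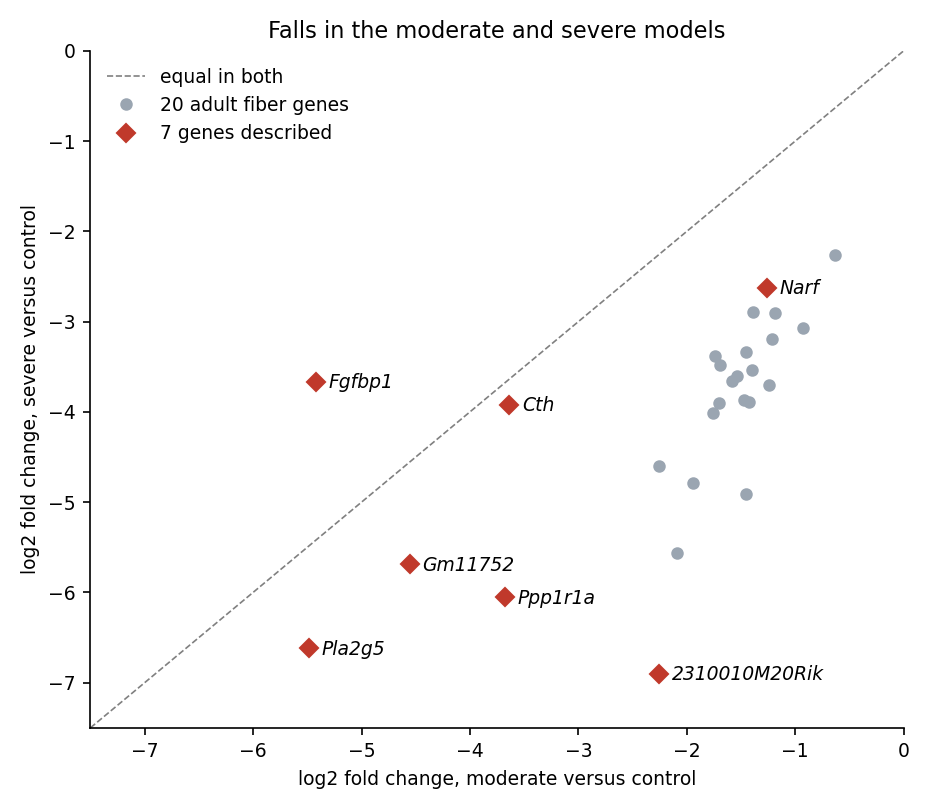
Log2 fold change in the severe model against that in the moderate model, each relative to control, for the 7 genes (diamonds) and 20 adult fiber genes (circles), with a dashed line where both are equal. On the moderate axis 5 of the 7 genes lie to the left of all fiber genes, Narf lies among the fiber genes, Smco1 lies at the bottom, and Fgfbp1 lies above the line.

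The size of these falls depends on the scaling between libraries. With library sizes alone, without TMM factors, the median log2 fold change of all genes shifted to 0.65 in moderate and 1.39 in severe mice, and that of the 7 genes became -3.07 and -4.42. All 7 kept a negative sign in both models under this scaling, with Narf at -0.66 and -1.33.

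The comparison of FLExD with control mice asked whether these genes were lower in mice with the DUX4 transgene but without Cre. By their labels, the control mice carried MerCreMer and the FLExD mice did not. No group lacked both transgenes, so the DUX4 transgene and the lack of MerCreMer cannot be told apart in this comparison. The choice of the genes did not use this comparison directly, but it was made across all 4 groups. The comparison also shares the control mice with the contrasts used to choose the genes. None of the 7 genes was called in edgeR's quasi-likelihood test, in which 0.006% of all genes, a single gene (Esr1), was called. In all 7 genes the FLExD and control mice overlapped, while 8.6% of all genes did not overlap. The count was also 0 with DESeq2 and with limma on log2(TPM + 1), and 1 of the 7 genes, Pla2g5, had an unadjusted p under 0.05. In FLExD mice Pla2g5 was at 8.02, 3.87 and 5.69 CPM, against 7.47 to 18.9 CPM in control mice. Its mean was 49% of control, with a log2 fold change of -1.03 (SE 0.33) and an adjusted p of 1 in edgeR. Without control replicate 1127, the control mouse with the highest level, the log2 fold change was -0.54.

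The other genes were close to their control levels in FLExD muscle. Fgfbp1 was at 15.8, 15.8 and 12.4 CPM, with a log2 fold change of 0.30 (SE 0.17). Cth stood at -0.16 (SE 0.30) and Ppp1r1a at -0.07 (SE 0.21). The log2 fold changes of Gm11752, Narf and Smco1 were -0.02 (SE 0.21), -0.01 (SE 0.13) and -0.01 (SE 0.17). A miss of the threshold does not show equal levels. The 95% intervals of these 6 log2 fold changes ran from -0.82 at the lowest, for Cth, to 0.66 at the highest, for Fgfbp1, while that of Pla2g5 ran from -1.74 to -0.31.

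**Figure D3:**
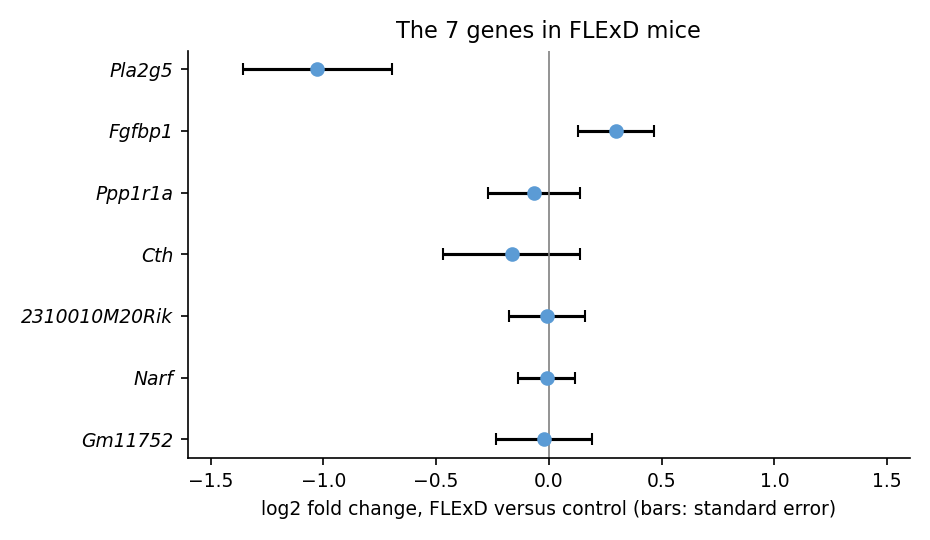
Log2 fold change of the 7 genes in FLExD relative to control mice, with bars of 1 standard error either side from the fit of all 12 mice. Pla2g5 lies at -1.03, Fgfbp1 at 0.30, and the other genes within 0.2 of 0.

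The enzymes, carriers and regulators around the 7 genes were examined as 6 lists of related genes, 113 of 128 of which were tested. In the moderate model 29 were called lower and 27 higher, against 17% and 24.4% of all genes, and in the severe model 38 were called lower and 31 higher, against 27.9% and 32.9%. The median log2 fold change of these genes was 0.00 and -0.09. The split depended on scaling, with 10 lower and 62 higher in the moderate and 16 lower and 78 higher in the severe model on library sizes alone. With limma on log2(TPM + 1) the split was 11 lower and 44 higher, and 16 lower and 76 higher.

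Around Cth, 9 of 18 tested genes of cysteine and sulfide metabolism were called lower and 3 higher in the severe model, and 7 and 1 in the moderate model. On library sizes alone the severe split was 5 lower and 10 higher. Mpst, another enzyme that can make hydrogen sulfide, fell from 32.1 ± 2.5 CPM in control to 11.6 ± 1.56 in moderate and 4.28 ± 0.354 in severe muscle (log2 fold change -1.47 and -2.91). Tst, a mitochondrial sulfurtransferase, fell by 3.11 (SE 0.17) on the log2 scale in severe mice, the largest fall among the more highly counted genes of the list (adjusted p = 1.51e-09 in edgeR). Mtr, methionine synthase, rose by 1.29 (SE 0.13) in the severe model. Cbs, which makes the substrate of Cth, was at 0.383 ± 0.209 CPM in control and 0.195 ± 0.0463 in severe muscle, a difference that was not called (log2 fold change -0.94, and 0.35 on library sizes alone). Gclc, which starts glutathione synthesis from cysteine, was at 11 ± 0.469 CPM in control and 10.8 ± 0.328 in severe muscle. Its log2 fold change was -0.03 with TMM factors and not called, but 1.27 and called higher on library sizes alone.

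Of 22 tested phospholipases A2 and lipid mediator genes, 4 were called lower and 11 higher in the severe model, and 3 and 11 in the moderate model. The severe split became 0 and 18 on library sizes alone. The cytosolic Pla2g4a rose from 2.52 ± 0.889 to 7.16 ± 0.201 CPM in severe muscle (adjusted p = 8.75e-06 in edgeR). The lysosomal Pla2g15 rose by 1.75 (SE 0.15). The largest rise was that of Hpgds, a prostaglandin D synthase of blood-derived cells, at 1.15 ± 0.29 CPM in control and 15.5 ± 3.12 CPM in severe muscle. It is found in the same muscles in which all 8 macrophage genes were higher, and their part in its level was not tested. Pla2g4e fell by 2.16 (SE 0.41), though it was not called on library sizes alone, and Pla2g12a, at 40.4 ± 11.5 CPM in control, was not called with TMM factors (log2 fold change -0.40) but was called higher on library sizes alone (0.89).

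Among FGF ligands, receptors and binding proteins, 5 of 19 were called lower and 7 higher in the severe model, and 2 and 8 in the moderate model, with a severe split of 3 and 14 on library sizes alone. The ligands Fgf1 and Fgf6 fell with Fgfbp1 in the severe model. Fgf1 went from 22.9 ± 12.2 to 5.28 ± 0.794 CPM, and Fgf6, a ligand of skeletal muscle, from 1.21 ± 0.593 to 0.0701 ± 0.0404 CPM, which is near the floor. Fgfbp3, a relative of Fgfbp1, fell by 2.15 (SE 0.35) in the severe model and was at -0.71 (SE 0.32), not called, in the moderate model. The receptor Fgfr4 rose from 1.05 ± 0.557 CPM to 3.36 ± 0.2 in moderate and 12.4 ± 3.17 in severe muscle. Fgfr1 was at 54.7 ± 3.92 CPM in control and 50 ± 3.98 in severe muscle, not called with TMM factors and called higher on library sizes alone. Fgf2 was called lower with TMM factors, with a log2 fold change of -1.08 that turned to 0.23, not called, on library sizes alone.

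The list of protein phosphatase 1 and PKA genes, to which Ppp1r1a belongs by function, held 14 lower and 4 higher genes of 29 in the severe model, and 12 and 1 in the moderate model. Library sizes alone gave 7 and 15 in the severe model. The muscle glycogen-targeting subunit Ppp1r3a fell from 886 ± 105 CPM to 388 ± 56.1 in moderate and 105 ± 35.4 in severe muscle. Ppp1r3c, another glycogen-targeting subunit, was at 155 ± 31.2 CPM in control and 25.1 ± 10.4 in severe muscle, a fall of 2.62 (SE 0.46) on the log2 scale. Phkg1, the catalytic subunit of muscle phosphorylase kinase, had the largest fall of the list, by 4.38 (SE 0.23), from 324 ± 30.7 to 15.6 ± 5.6 CPM. The catalytic subunits of the phosphatase and the kinase, Ppp1ca and Prkaca, were not called with TMM factors, at log2 fold changes of -0.18 and -0.27 in the severe model, and were called higher on library sizes alone, at 1.12 and 1.04. Inhibitor-2, Ppp1r2, was called lower with a log2 fold change of -1.11, which was 0.19 and not called on library sizes alone. Ppp1r14b, another phosphatase inhibitor, rose by 1.07 (SE 0.10). Ppp1r1b, a relative of Ppp1r1a, did not pass the filter on low counts.

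Around Narf, 5 of 24 genes of lamin processing and cytosolic iron-sulfur assembly were called lower and 6 higher in the severe model, and 4 and 6 in the moderate model, while library sizes alone gave 1 and 21 in the severe model. Lmna, which encodes prelamin A, rose from 63.7 ± 5.8 CPM to 123 ± 12.2 in moderate and 201 ± 19.5 in severe muscle. Lmnb1 rose by 1.86 (SE 0.15) in severe mice. Sun2, a protein of the inner nuclear membrane, fell by 2.01 (SE 0.10). Zmpste24, the protease that cuts prelamin A, was not called with TMM factors, at -0.06 (SE 0.08) in the severe model, and was called higher on library sizes alone at 1.24. Narfl, which resembles Narf in sequence, was called lower at -0.85 (SE 0.11) in the severe model, and its log2 fold change was 0.45, not called, on library sizes alone. Smco4 was the 1 tested gene of the 3 listed in the SMCO family, at 2.46 ± 0.461 CPM in control and 0.909 ± 0.172 CPM in severe muscle, a log2 fold change of -1.43 that was -0.13 and not called on library sizes alone.

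**Figure D4:**
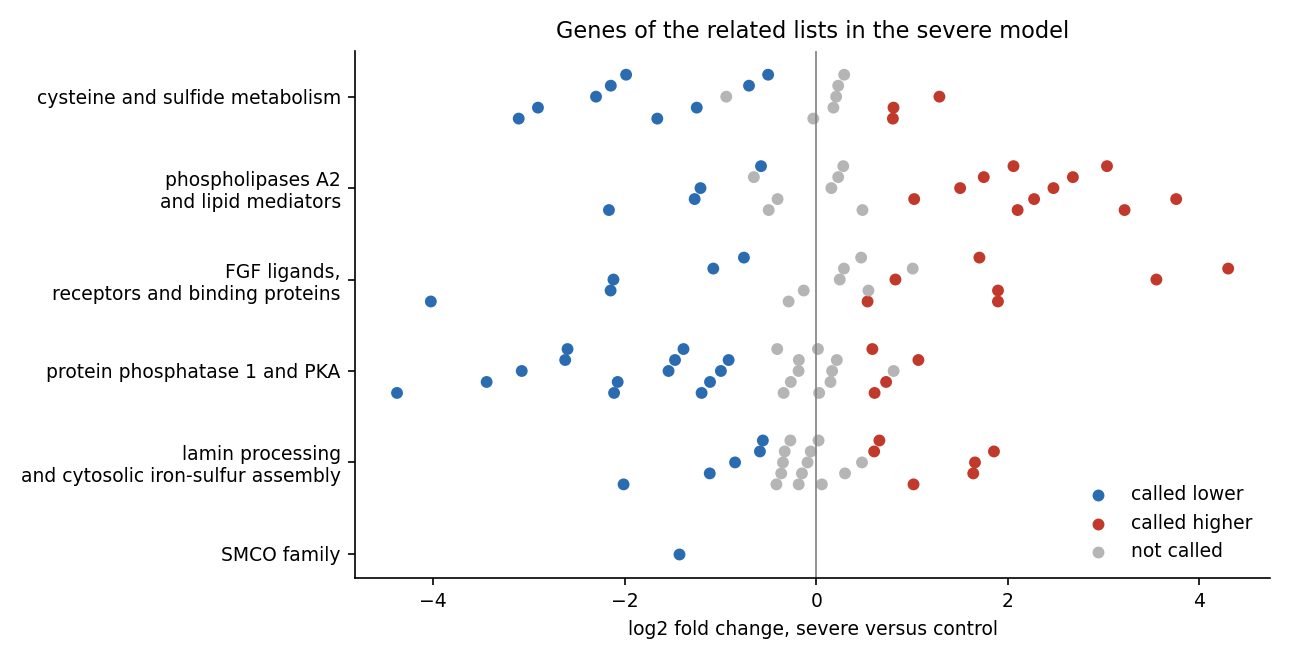
Log2 fold change in the severe model relative to control for each tested gene of the 6 related lists, 1 point per gene, shifted vertically within a row only so that points do not cover each other. Blue points were called lower, red points called higher and grey points not called, and 4 of the 22 lipid genes are blue while 11 are red.

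To see which genes behaved most like each of the 7 over the 12 mice, the root mean square difference between their log2 levels, each centred on its own mean, was taken over all genes tested. These log2 levels were taken with a prior count of 2 added, which draws together genes that are near the floor in the models. Narf had the closest neighbours in this sense, Optn at 0.07 and Vdac1, a mitochondrial outer membrane channel, at 0.08. Ppp1r1a was closest to Dusp26 at 0.36 and Ankrd23, a muscle ankyrin repeat gene, at 0.37. For Smco1 they were 2310065F04Rik at 0.40 and Kcng4 at 0.46, and for Cth they were Cyp4f39 and Rhpn2, both at 0.42. Pla2g5 was closest to Gm11752 at 0.59, and Gm11752 itself to Prss55 at 0.32. Fgfbp1 had the most distant nearest gene, Prss55 at 0.82. Prss55 was at 1.62 CPM in control, 0.022 CPM in moderate and 0 in severe muscle. Its log2 fold changes were -5.95 in moderate and -8.53 in severe mice, against -4.55 and -5.69 for Gm11752. When the genes were ranked by Pearson correlation instead, 0 of the 14 nearest genes were the same.

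Genes beside the 7 on the chromosome moved in both directions. Within 100 kb of the 7 genes, 23 of 56 annotated genes were tested. Of these, 7 were called lower (30.4%) and 3 higher in the moderate model, against 17% and 24.4% of all genes. In the severe model 8 were called lower (34.8%) and 7 higher, against 27.9% and 32.9% of all genes. Pde1b, a cyclic nucleotide phosphodiesterase that ends 227 bases from Ppp1r1a, rose by 1.72 (SE 0.33) in the severe model, where Ppp1r1a was at 1.5% of control. Cybc1, 7931 bases before Narf, rose by 1.35 (SE 0.13). Prom1, 11841 bases from Fgfbp1, and Ptger3, the nearest tested gene before Cth but 248360 bases away and so outside the 100 kb, fell by 2.15 (SE 0.23) and 1.96 (SE 0.24), and Cd38 beside Fgfbp1 rose by 0.64 (SE 0.18). Gaa beside Gm11752, Otud3 beside Pla2g5 and Wdr53 before Smco1 were called lower with TMM factors, at -1.41, -1.07 and -0.77, and stood at -0.11, 0.23 and 0.54 on library sizes alone. Rnf168, 2678 bases past Smco1, Foxk2, 4134 bases past Narf, and Ankrd13c beside Cth were not called with TMM factors, at -0.20, -0.35 and -0.17, and were called higher on library sizes alone. Pla2g2d beside Pla2g5 and Gm26888 before Gm11752, both under 1 CPM in control, were not called in the severe model, while Gm26888 was called lower in the moderate model with TMM factors, at -1.42 (SE 0.41), and not called on library sizes alone. Gm11752 lies inside the span of Tbc1d16, a protein-coding gene on the other strand that fell from 42.1 CPM in control to 9.62 in moderate and 11 in severe muscle (log2 fold change -2.13 and -1.93). The sources used here do not give a strand for the counts, so reads of Gm11752 and Tbc1d16 may not be told apart. Pla2g5 and Cth also overlap annotated genes, Pla2g2a and Gm25280 for Pla2g5 and Gm43314 for Cth, none of which passed the filter on low counts.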

How the data were processed

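Poly(A) RNA of the gastrocnemius was measured in 12 mice, 3 per group, grouped by the strain and treatment labels. The authors used RSEM 1.2.4 with Bowtie on a merged mm10 annotation (UCSC, Ensembl, MISO), gave the remaining reads to TopHat 2.0.8b, and deposited expected counts without normalization, 1 column per mouse. They also deposited TPM values, in which 164142 of 164417 entries with 0 counts were above 0, so TPM are used here only for control levels and 1 alternative.

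Expected counts were rounded and fitted with edgeR 4.0.16 in R 4.3.3 (quasi-likelihood F-test, robust, after filterByExpr and with TMM factors, all 12 mice in 1 fit of 4 groups), with Benjamini-Hochberg adjustment over 16679 genes. A call needed an adjusted p below 0.05 and a log2 fold change of 0.5 or more in size. Standard errors were derived from the F statistic, and intervals of a log2 fold change are 95%. Between 31.8% and 36.2% of the counts in a library were not whole before rounding. The labels give each library its own mouse, and p-values measure the spread between these mice. With 3 against 3, an exact two-sided permutation test could not go below p = 0.1.

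The 7 genes, the gene lists and the rule for named genes were chosen with earlier results of these data known. Named genes are the 7 genes, in each related list the called gene with the largest rise and the largest fall in the severe model among those averaging 50 counts or more in the higher group, a set of names given whatever their values, the 2 nearest patterns of each gene, and overlapping genes or nearest neighbours. Positions came from GENCODE M21, and promoters from RefSeq (GRCm38.p6). Alternatives were median-of-ratios factors, library sizes alone, DESeq2 1.42.0, limma 3.58.1 on log2(TPM + 1), no filter, a mean of at least 10 counts, only the groups compared, a log2 fold change of at least 1, and each mouse left out in turn.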

Additional observations from a re-analysis of the deposited data

How the results depend on the processing

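None of the 7 genes was called in FLExD relative to control mice under any alternative run, and the 7 genes kept a negative log2 fold change in both models in each. With median-of-ratios factors, DESeq2, no filter, a mean of at least 10 counts and only the groups compared, the medians of the 7 genes and the counts of related genes stayed close to those given above. In the fit of only the severe and moderate mice, 3 of the 7 genes did not pass the filter, so no median was taken.

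On library sizes alone, the median of the 7 genes was -3.07 in moderate mice, -4.42 in severe mice and -0.47 between the models, and related genes called lower and higher numbered 10 and 62 in the moderate and 16 and 78 in the severe model. With limma on log2(TPM + 1), the medians were -2.32, -2.31 and -0.10, and the counts 11 and 44, and 16 and 76. The pseudocount understates the change of low genes. With a log2 fold change of at least 1, 16 related genes were called lower and 17 higher in the moderate model, and 29 and 22 in the severe model. By Pearson correlation 0 nearest genes were shared. Within 50 kb, 5 and 7 of 15 tested neighbours were called lower in the moderate and severe models, against 17% and 27.9% of all genes.

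With each mouse left out in turn, the median of the 7 genes ranged from -4.13 to -3.45 in moderate mice, -5.80 to -5.32 in severe mice and -1.42 to -1.02 between the models. No paired analysis was possible because the groups share no replicate numbers. Depth limits Gm11752, Pla2g5 and Cth, which had 1 to 16 counts per mouse in the models, Fgfbp1 in the moderate model with 4 to 11, and Smco1 in the severe model with 8 to 20.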
